A study of Drosophila melanogaster with 6 samples.

Results

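The genes described here are those of the terminal system of the fruit fly embryo together with the maternal repressors that it acts on, namely tor, trk, tsl, Ras85D, csw, cic and gro. Members were found by gene symbol among the probe sets of the array. Of the 7 genes, 6 were named by a probe set with exactly 1 gene, out of 11981 such genes in all, and they had 7 probe sets, since cic had a second. No probe set was named for Ras85D, the Ras GTPase below the receptor, and it was not analysed here. Affymetrix Drosophila Genome 2 arrays were hybridised with total RNA of embryos aged 1 to 2 h, with 1 RNA sample per array. The zld clone group comprised 3 samples, from eggs of mothers bearing a zld germ-line clone, so that the egg lacked normal maternal function of zelda (zld), a zinc finger factor that opens and activates early genes. The yw group comprised 3 samples from the yw stock, labelled as wild type, which carries the marker alleles that give the stock its name. In a fixed portion, 90% of embryos were in nuclear cycles 8 to 13. The zld allele and the paternal genotype are not given in the labels, and each sample is a pool of embryos.

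The terminal system patterns both ends of the embryo. Torso-like (Tsl), made by follicle cells at the poles of the egg, lets the secreted ligand Trunk (Trk) act locally on Torso (Tor), a receptor tyrosine kinase that lies all over the egg membrane. The signal passes through the phosphatase Corkscrew (Csw), Ras and the MAP kinase cascade and relieves repression by Capicua (Cic), an HMG-box protein, and its co-repressor Groucho (Gro), so that the zygotic genes tll and hkb are switched on at the poles. Where the signal acts is set by proteins laid down in the egg, and the RNAs of most of these genes are maternal.

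The zld signal was 225 ± 34.7 (SD, n = 3) in zld clone and 1017 ± 48.1 (SD, n = 3) in yw embryos, a log2 difference of -2.11 (adjusted p = 1.92e-04, limma). Median signals were between 16.4 and 23.3 over the 6 arrays. The 27 probe sets for Bacillus genes, which a fly does not have, gave a 95th percentile of 18.1, used below as the background level. Of 6 listed maternal RNA markers 4 were measured and 0 were called (limma). Their summed signal ran from 5748 to 7185 in yw and from 6113 to 7178 in zld clone embryos. Of 6 zygotic blastoderm markers 5 were called lower, beside 1.00% of all genes called lower and 1.98% called either way. Some arrays stood apart. On zld clone replicate 2 the 5′ over 3′ signal ratio of the array's actin, Act5C and eIF-4a control probe sets, a measure of how intact the labelled RNA was, stood at 0.323, 0.194 and 0.258, where the lowest of the other 5 arrays were at 0.614, 0.405 and 0.372. A GAPDH control gave 0.636, inside the range of the others, and its later design gave 0.064 against a lowest value of 0.0838. On yw replicates 1 and 2 the 5 measured of 8 listed muscle and basement membrane markers, of which 0 were called (limma), summed to 293.7 and 404.9, against 75.7 on yw replicate 3 and 34.1 to 56.5 on the zld clone arrays.

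None of the 6 genes was called higher or lower without maternal zld (limma on log2(signal + 16), Benjamini-Hochberg over 18769 probe sets, adjusted p under 0.05). Among all 11981 genes 1.98% were called, 1.00% lower and 0.977% higher, so a count of 0 of 6 is near that share and sets these genes apart from no others. At an unadjusted p under 0.05 there was 1 of the 6, cic, where the share of all genes was 17.8%. The methods' t-test on the same log2 values also called 0 of 6 after adjustment and had 1, tor, at an unadjusted p under 0.05. The median log2 difference of the 6 was -0.01, with 3 below and 3 above 0, against -0.04 over all genes. Since each sample is a pool, fewer embryos of a stage and less RNA per embryo cannot be told apart.

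**Figure D1:**
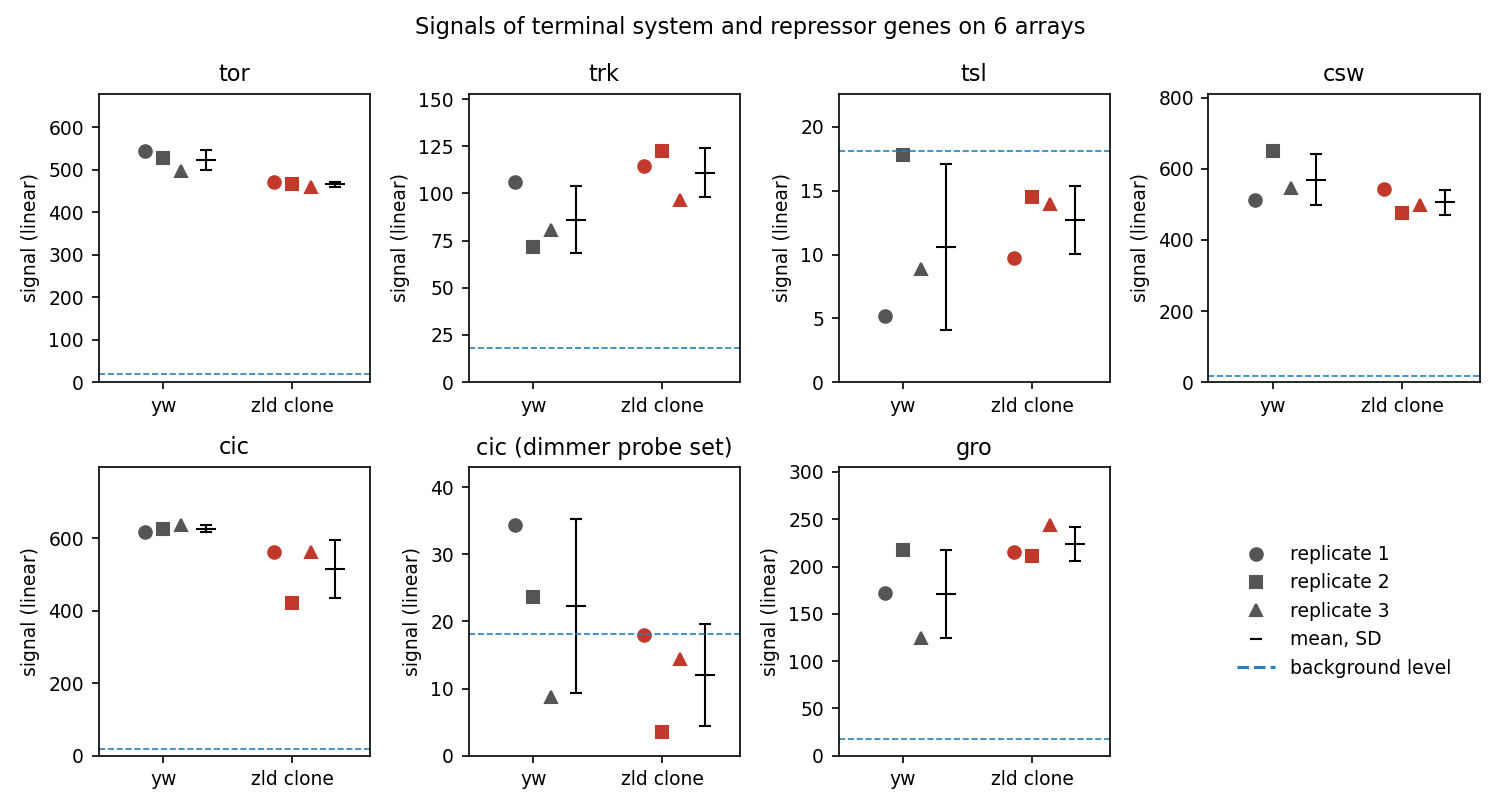
Linear signal (y axis, from 0, a scale of its own for each gene) on the 3 yw and 3 zld clone arrays for the 7 probe sets of 6 genes, with group means and SD and the background level of 18.1 as a dashed line. Signals of tor and of the brighter cic probe set do not overlap between groups, with zld clone below yw as for 14.5% of all genes. Those of the others overlap, and tsl lies below background on all 6 arrays.

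Trunk is the ligand, secreted as a precursor. Its trk signals were 106.2, 71.9 and 80.4 on yw replicates 1, 2 and 3. They were 114.6, 122.4 and 96.8 on zld clone replicates 1, 2 and 3. The zld clone mean of 111 ± 13.1 was above the yw mean of 86.2 ± 17.9 (SD, n = 3 each), but yw replicate 1 lay above zld clone replicate 3, so the groups overlapped. The log2 difference was 0.33 (SE 0.16, 95% interval -0.04 to 0.70, adjusted p = 0.38, limma). As a fold of signal + 16 the interval ran from 0.97 to 1.62. With median centring the log2 difference was 0.48 (adjusted p = 0.164, limma), and with quantile normalization 0.37 (adjusted p = 0.412).

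Torso-like is supplied by follicle cells, which are left behind when the egg is laid. Its tsl signals of 5.2, 17.8 and 8.9 in yw and 9.7, 14.5 and 14 in zld clone embryos were under the background level on all 6 arrays. No level can be set for it in either group, and its log2 difference of 0.13 (adjusted p = 0.776, limma) is a difference within background. As a check for follicle cell RNA, 14 egg shell and yolk protein markers were listed, of which 0 were called (limma), beside 1.98% of all genes. Their summed signal ran from 197.2 to 258.6 in yw and from 167.9 to 214.3 in zld clone embryos. Of the 14, 6 were at or below background on all arrays, among them Yp2, Cp16 and Cp36. Vm26Aa (30.4 to 41.8) and psd (24.0 to 32.6) were above it on all 6 arrays. The others passed it on 1 to 4 arrays. Whether these signals come from follicle cell RNA was not tested.

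The receptor Torso gave close replicates, with a coefficient of variation of 4.5% in yw and 1.16% in zld clone embryos. Signals of tor were 543.2, 526.7 and 496.8 in yw and 470.6, 465.1 and 459.8 in zld clone embryos. All 3 zld clone arrays lay below all 3 yw arrays, which 14.5% of all genes also showed. The means were 522 ± 23.5 and 465 ± 5.4 (SD, n = 3 each), a log2 difference of -0.16 (SE 0.0781, 95% interval -0.34 to 0.02, adjusted p = 0.374, limma). The interval as a fold of signal + 16 was 0.79 to 1.01. This small gap depended on the kind of scaling. With each array centred on its median, tor stood at -0.0037. That centring moved the median difference of all probe sets up by 0.157 on the log2 scale. Under quantile normalization tor stayed at -0.16. Without yw replicates 1 and 2 it was at -0.09.

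Corkscrew, the SH2 phosphatase that binds activated Torso, had csw signals of 511.0, 649.0 and 546.7 in yw and 544.2, 474.9 and 499.0 in zld clone embryos. The groups overlapped, with yw replicate 2 highest. The log2 difference was -0.16 (SE 0.109, 95% interval -0.41 to 0.09, adjusted p = 0.527, limma). Without yw replicate 2 it was -0.06 (adjusted p = 0.828). With median centring it was -0.002, and with quantile normalization -0.15.

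Capicua, the repressor that the pathway relieves, was the member with the smallest unadjusted p, 0.0427 (limma). The brighter cic probe set gave 616.9, 627.3 and 637.9 in yw and 562.5, 422.1 and 562.3 in zld clone embryos. The yw arrays had a coefficient of variation of 1.67% and all lay above the zld clone arrays, as for 14.5% of all genes. Of the zld clone arrays, replicate 2 was far the lowest. The means were 627 ± 10.5 and 516 ± 81.0 (SD, n = 3 each), and the log2 difference was -0.29 (SE 0.119, 95% interval -0.56 to -0.01, adjusted p = 0.303, limma). Without zld clone replicate 2, the array with the low 5′ over 3′ ratios, it was -0.15 (adjusted p = 0.536), and the other zld clone arrays were still below the yw arrays. With median centring it was -0.13, and with quantile normalization -0.29. The part of RNA integrity in this difference was not tested beyond these values.

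A second, dim cic probe set gave 34.4, 23.7 and 8.7 in yw and 18.0, 3.5 and 14.4 in zld clone embryos. It passed background on 2 arrays, yw replicates 1 and 2, and was also lowest on zld clone replicate 2. Its log2 difference was -0.43 (95% interval -1.15 to 0.28, adjusted p = 0.549, limma). Leaving out yw replicates 1 and 2 turned it to 0.14. The gene makes several transcripts, and which of them each probe set reads was not examined here.

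Groucho, the co-repressor that works with Capicua and many other repressors, had the largest difference among the brighter probe sets. The gro signals were 171.5, 218.0 and 124.4 in yw and 215.4, 211.2 and 244.2 in zld clone embryos. The zld clone arrays were close together, while yw embryos spread widely, and yw replicate 2 lay inside the zld clone range. The means were 171 ± 46.8 and 224 ± 18.0 (SD, n = 3 each), a log2 difference of 0.38 (SE 0.178, 95% interval -0.03 to 0.79, adjusted p = 0.355, limma). The value rested on yw replicate 3: without it the log2 difference was 0.19 (adjusted p = 0.545). With median centring it was 0.54 (adjusted p = 0.117, limma), and with quantile normalization 0.35 (adjusted p = 0.444). With yw replicates 1 and 2 left out it was 0.77 (adjusted p = 0.0938), the lone yw array being assumed to vary like the others. Among yw arrays gro was highest on replicate 2 and lowest on replicate 3, the same order as the muscle and basement membrane markers (404.9, 293.7 and 75.7 on replicates 2, 1 and 3). Of the 5 markers, Mlc1 and Col4a1 were above background on yw replicate 3 (34.1 and 25.8) and Mlc2, up and vkg were not (1.7, 3.5 and 10.6). Between groups gro ran the other way, since the marker sums were lowest on the zld clone arrays (50.4, 34.1 and 56.5), where gro was at 215.4, 211.2 and 244.2. Among yw arrays the summed zygotic blastoderm markers had the same order as gro (1741.7, 1336.7 and 1135.6 on replicates 2, 1 and 3). The summed maternal RNA markers were highest on yw replicate 3 (7184.8). Whether tissue of older embryos added to gro was not tested. The probe set's suffix marks it as one that may also read transcripts of other genes, as does that of tsl.

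**Figure D2:**
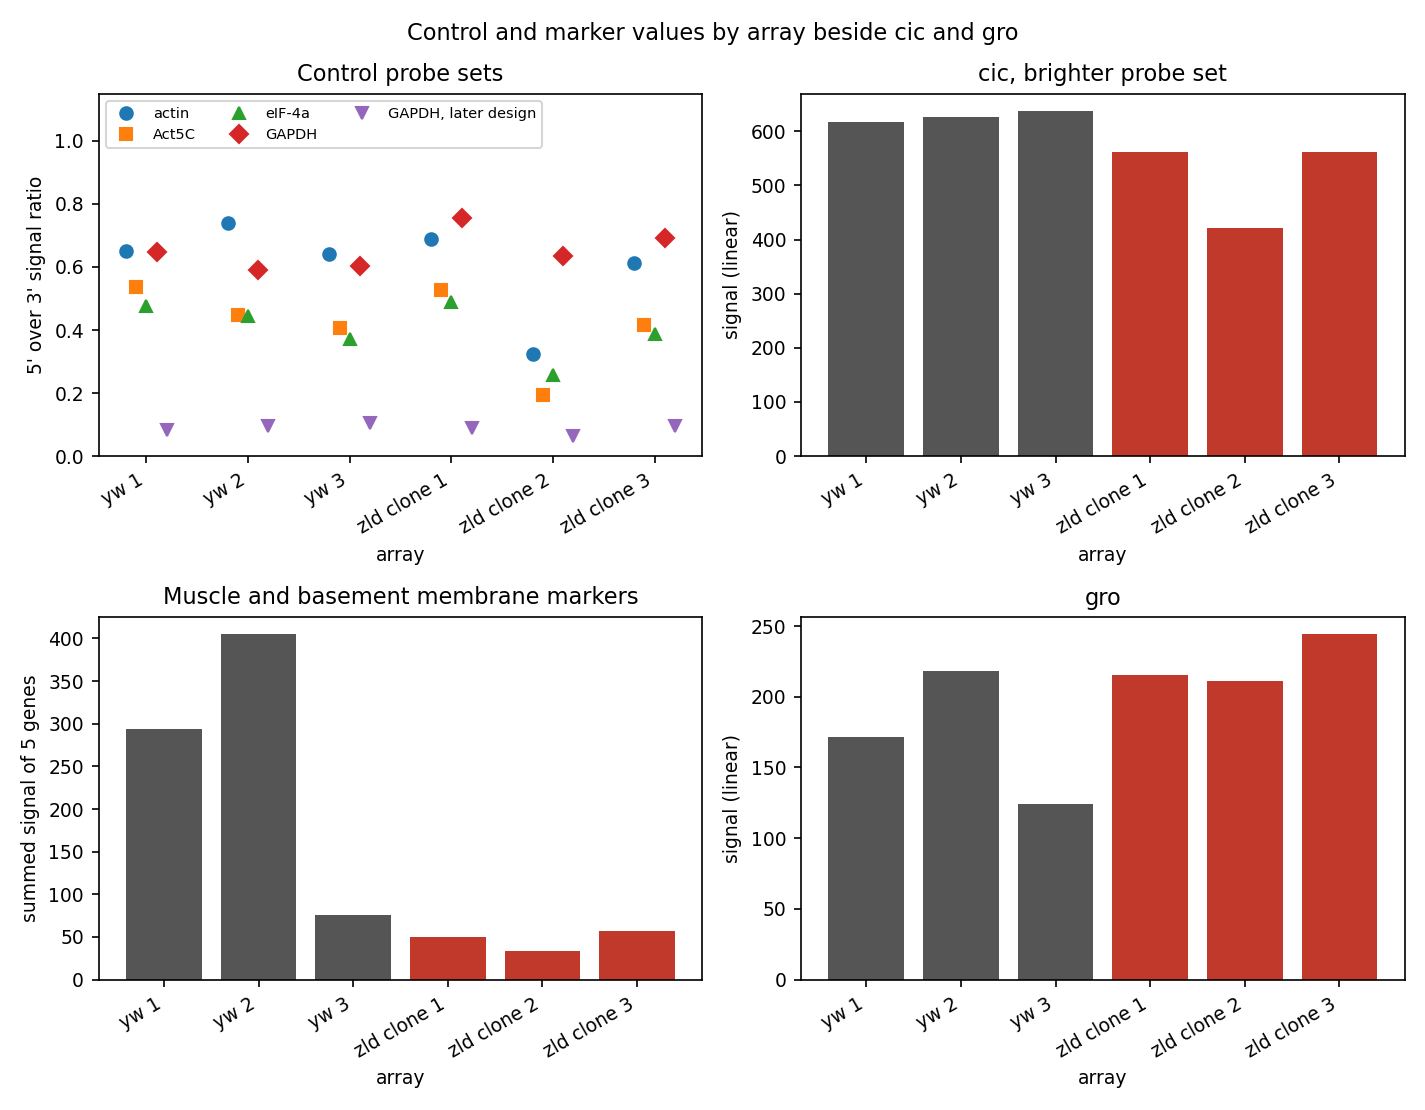
Values on the 6 arrays (x axis): 5′ over 3′ signal ratios of 5 control probe sets (points, linear ratio), signal of the brighter cic probe set, summed signal of 5 muscle and basement membrane markers, and gro signal (bars, linear, from 0, grey yw and red zld clone). Zld clone replicate 2 is lowest in cic and in 4 of the 5 ratios, and yw replicates 1 and 2 are highest in the markers.

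The precision was enough to bound the differences of the brightest probe sets under the main setting. For the 5 genes above background, trk, tor, csw, cic and gro, the unadjusted 95% interval of the log2 difference lay between -1 and 1, so that a 2-fold difference in either direction was outside it. Of all 5208 genes with a mean signal over 100 in either group, 93.7% also had an interval between -1 and 1, so this was true of most such genes. The interval of tsl did so too, but within background, where the added 16 shrinks any difference. That of the dim cic probe set, from -1.15 to 0.28, did not. No call was made for any of the 6 genes under any of the alternatives, and the lowest adjusted p of each ran from 0.0938 for gro to 0.381 for tsl.

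**Figure D3:**
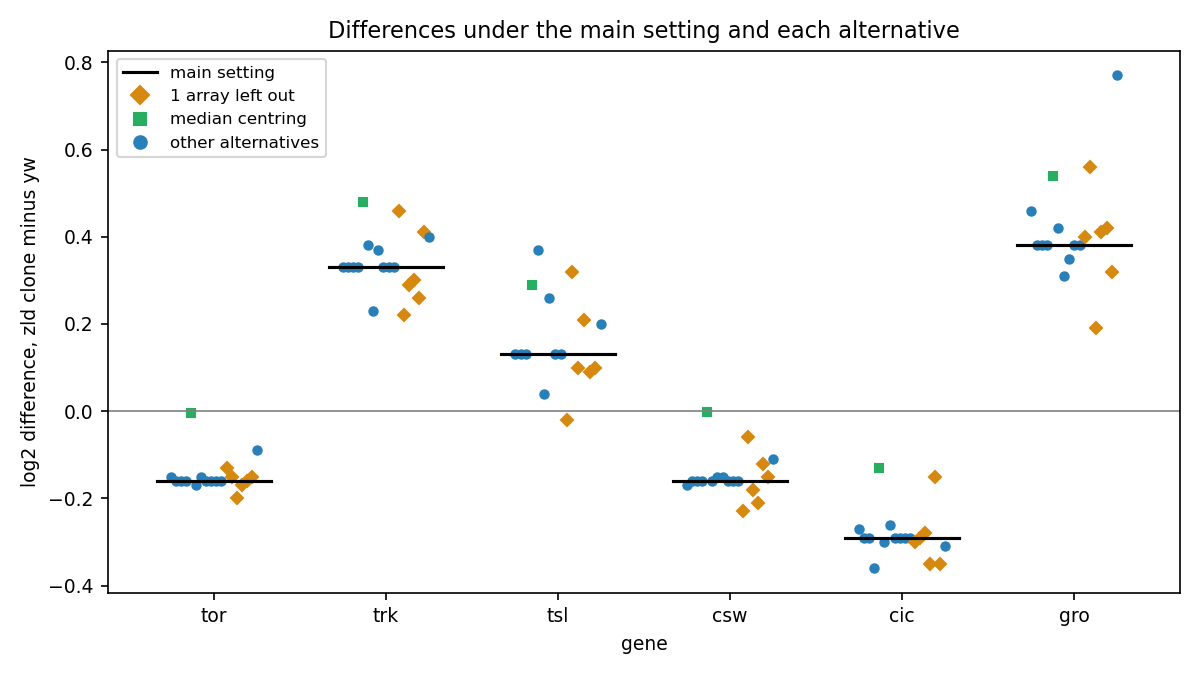
Log2 difference of signal + 16 (y axis, zld clone minus yw) of the 6 genes (x axis) under the main setting (black line) and each alternative (points, with other pseudocounts or probe set summaries among them). Values of tor and csw reach about 0 with median centring, trk and gro stay above 0, cic stays below 0, and gro spreads from 0.19 to 0.77.

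Genes acting upstream of Torso were set beside the members. Of 6 listed, 4 were measured. Among these 0 were called (limma) and 1 was at an unadjusted p under 0.05, beside 1.98% and 17.8% of all genes. The median log2 difference of the 4 was -0.06. The 3 genes fs(1)N, clos and fs(1)M3 encode egg membrane proteins needed for Torso activation, of which fs(1)M3 was not named here. Closca (clos) had the largest difference of this list, from 476 ± 44.0 in yw to 382 ± 60.8 in zld clone embryos (SD, n = 3 each; log2 difference -0.31, adjusted p = 0.289, limma), with overlapping groups. Its other 2 probe sets had groups apart, zld clone below yw as for 14.5% of all genes, and were at -0.52 and -0.78, neither called. Signals of the last of these were 82.1, 16.9 and 77.9 on zld clone replicates 1, 2 and 3, with replicate 2, the array with low 5′ over 3′ ratios, the lowest. The brightest probe set showed the opposite, with 341.5, 451.7 and 352.2 on the same arrays, and without zld clone replicate 2 its log2 difference was -0.43 (adjusted p = 0.18). With median centring it was -0.16, and with quantile normalization -0.31. Fur2, a furin protease gene, was at -0.02, and median centring turned it to 0.14.

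In the Ras and MAP kinase cascade 13 of 18 listed genes were measured. Of these 0 were called (limma) and 1 was at an unadjusted p under 0.05, beside 1.98% and 17.8% of all genes. The median log2 difference was 0.00, with values from -0.36 to 0.17, and all 13 intervals lay within a 2-fold change. The lowest was dos, encoding an adaptor protein that Csw binds. Its signals were 903.1, 896.7 and 1035.4 in yw and 686.8, 762.6 and 740.4 in zld clone embryos, without overlap. The log2 difference was -0.36 (SE 0.0925, adjusted p = 0.11, limma). It was -0.21 (adjusted p = 0.336) with median centring and -0.39 (adjusted p = 0.0514) with quantile normalization, and no alternative called dos. Groups were apart for 3 of the 13 genes, all lower in zld clone embryos, where 14.5% of all genes were. The brightest, 14-3-3epsilon, which binds Raf in many species, was at 0.16 (adjusted p = 0.651) and at -0.0028 under quantile normalization.

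Of 13 listed partners of the repressors, 8 were measured, 1 was called lower and 0 higher, beside 1.00% of all genes called lower. The called gene was hry (hairy), a zygotic pair-rule repressor that recruits Groucho. Its signals were 230.2, 308.5 and 161.4 in yw and 98.8, 60.6 and 78.7 in zld clone embryos, without overlap. The log2 difference was -1.36 (SE 0.234, adjusted p = 0.0313, limma), and the call ended in 10 of 18 alternatives, among them the removal of any 1 zld clone array or of yw replicate 1 or 2. HDAC1, a histone deacetylase that works with Groucho, was at -0.11 and at 0.05 with median centring. The list's median was -0.20.

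Targets of the terminal system and of its repressors, transcribed by the embryo, held most of the pathway genes that were called. Of 9 measured, 4 were called lower (tll, zen, dpp and tld) and 0 higher, beside 1.00% of all genes called lower. The list median was -0.76 against -0.04 over all genes. The list was drawn up with results of these arrays known, so its direction is not independent evidence. Tailless (tll), the terminal gap gene, had signals of 143.9, 211.1 and 121.9 in yw and 77.8, 66.6 and 63.7 in zld clone embryos, without overlap. Its log2 difference was -1.01 (SE 0.191, adjusted p = 0.0471, limma), and the call ended in 11 of 18 alternatives with the sign kept, among them the removal of any 1 zld clone array or of yw replicate 1 or 2. Huckebein (hkb), the other terminal gap gene, had 170.1, 199.7 and 82.6 in yw and 98.5, 90.0 and 96.2 in zld clone embryos, with yw replicate 3 below all zld clone arrays. It was at -0.51 (adjusted p = 0.40) and reached -0.85 with an adjusted p of 0.0326 without yw replicate 3, but 0.17 without yw replicates 1 and 2. Both genes were highest on yw replicate 2 and lowest among yw arrays on replicate 3, as were the summed muscle and basement membrane markers. The summed zygotic blastoderm markers also had this order (1336.7, 1741.7 and 1135.6 on yw replicates 1, 2 and 3). The called genes hry, dpp (42.8, 76.4 and 32.9 on yw replicates 1, 2 and 3) and tld (44.7, 78.9 and 34.0) had the same order. For zen the lowest yw array was replicate 1 (197.9, 303.7 and 203.0), and the summed maternal RNA markers were highest on replicate 3 (5747.9, 6239.9 and 7184.8). The part of this order in any of these differences was not tested beyond these values.

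The other called targets were genes that Dorsal represses ventrally, with Gro as co-repressor. The signal of zen, a homeobox gene, fell from 235 ± 59.7 to 64.5 ± 12.5 (SD, n = 3 each; log2 difference -1.63, adjusted p = 0.00625, limma). The values of tld, a protease gene, and dpp, a BMP ligand gene, were -1.78 (adjusted p = 0.0152) and -1.38 (adjusted p = 0.0483), with zld clone signals within background, so that the added 16 sets their size. With pseudocounts of 1 and 64 tld was at -3.60 and -0.77 and dpp at -2.33 and -0.64. The call of dpp ended in 10 of its 17 alternatives, among them the removal of any 1 zld clone array or of yw replicate 1 or 2, that of tld in 4 of 18, among them the removal of any 1 zld clone array, and that of zen in 2 of 18, without yw replicates 1 and 2 and with the methods' t-test.

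To set targets and maternal genes against each other, the log2 difference between tll or hkb and each of the 5 members above background was taken within each array, 10 comparisons chosen after the data were seen. The 5 comparisons of a target share its values, and tll was already known to be lower, so their agreement adds nothing to the fall of tll. For tll the shift between groups was -0.85 over tor, -1.33 over trk, -0.85 over csw, -0.72 over cic and -1.39 over gro, with the groups apart in each. For hkb the groups were apart over trk (-0.84) and gro (-0.90) and overlapped over tor (-0.35), csw (-0.35) and cic (-0.23). Of the 5 members, trk and gro were those with a positive difference of their own (0.33 and 0.38, neither called). That difference enters the shift of hkb over them. The negative differences of tor (-0.16), csw (-0.16) and cic (-0.29), none called, enter the other shifts in the same way. So none of these shifts measures hkb alone, which was at -0.51. Where groups were apart the two-sided exact permutation p over arrays was 0.1, the smallest this test can give with 3 against 3 arrays, and 0.143 adjusted over the 10 comparisons. It was 0.4 for hkb over tor and csw and 0.6 over cic.

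**Figure D4:**
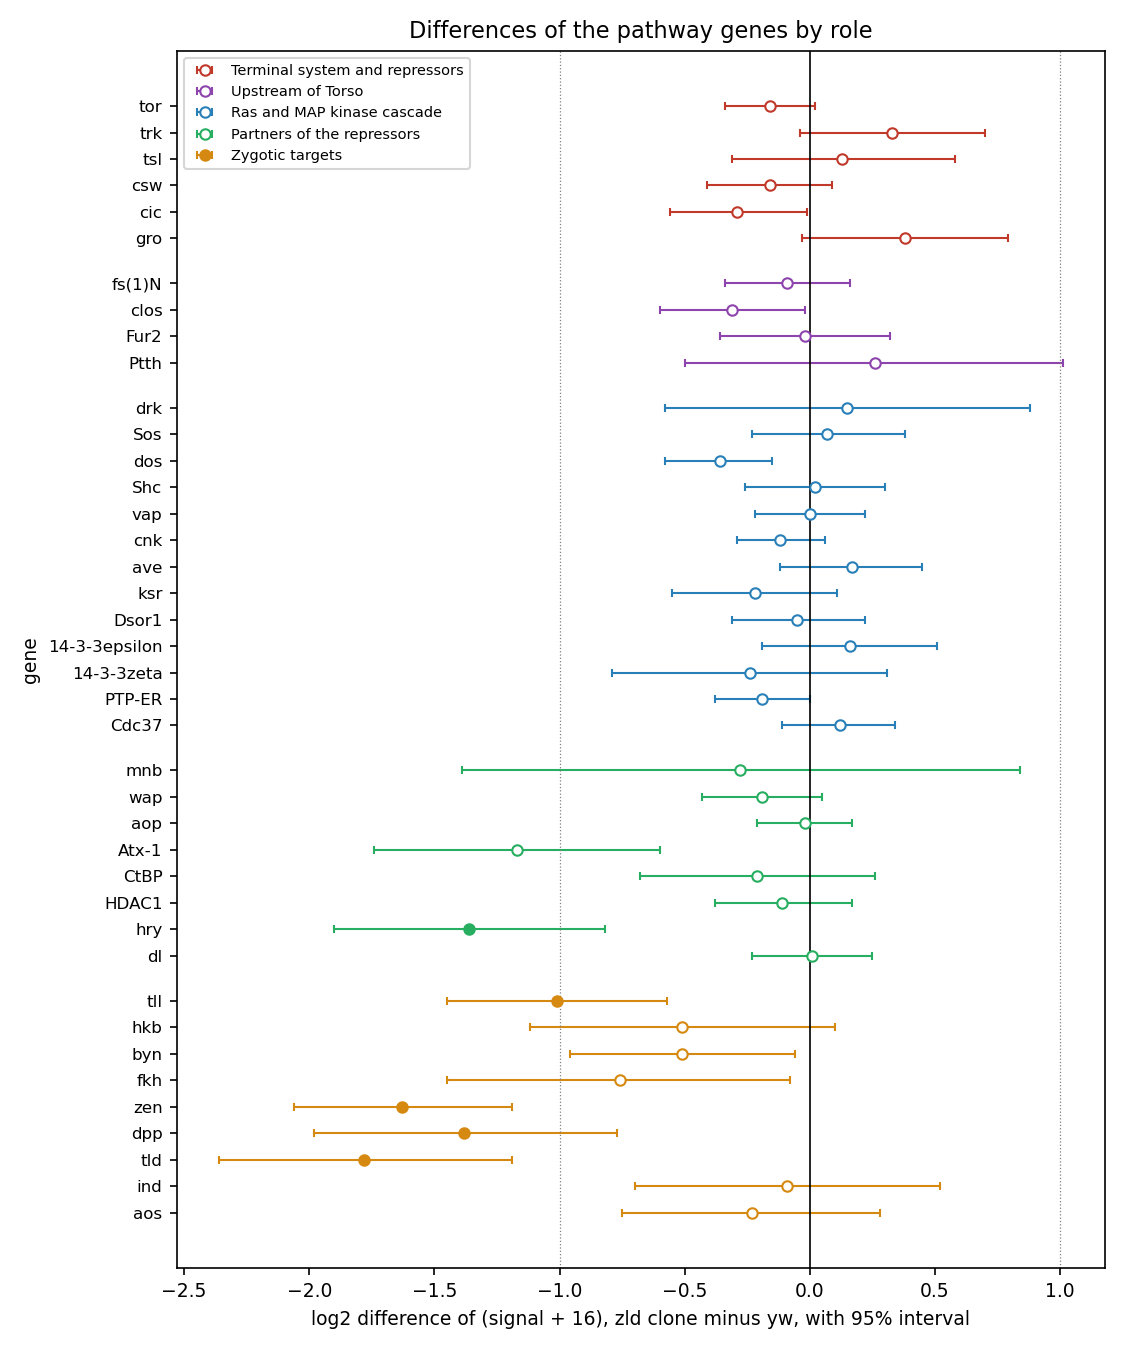
Log2 difference of signal + 16 (x axis, zld clone minus yw) with its 95% interval for the brightest probe set of each measured gene (y axis), in 5 roles. Filled points passed an adjusted p under 0.05: 0 of the 6 terminal system and repressor genes, 1 partner (hry) and 4 zygotic targets, and dotted lines mark a 2-fold difference.

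The position of the 6 genes was examined through the RefSeq gene order (assembly GCF_000001215.4). Of the 12 nearest protein-coding neighbours, 9 were measured. Of these 0 were called and 0 were at an unadjusted p under 0.05 (limma), beside 1.98% and 17.8% of all genes. The log2 differences of the 9 ran from -0.28 to 0.12. CASK, beside tsl, had the lowest and Mulk, beside trk, the highest. Exo84, next to gro, was at 205 ± 27.1 in yw and 215 ± 3.70 in zld clone embryos (SD, n = 3 each). The gene on the other side of gro, E(spl)m8-HLH of the Notch-responsive Enhancer of split complex, was not named by a probe set here.

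The genes most like gro and trk over the 6 arrays were found by the Pearson correlation of log2(signal + 16) with 5207 other genes of a mean signal over 100 in either group. For gro they were Cals, ogre and Herc4, at 0.979, 0.979 and 0.972. The ogre signals were 88.8, 119.6 and 54.9 in yw and 132.6, 144.7 and 163.4 in zld clone embryos, again lowest on yw replicate 3. For trk they were CG15536, CG4957 and MED16, at 0.992, 0.991 and 0.990. MED16, a Mediator subunit gene, had 103.8, 71.7 and 80.4 in yw and 113.7, 127.5 and 102.6 in zld clone embryos, so that its yw replicate 1 was high as for trk. None of these 6 genes was called (lowest adjusted p 0.191, limma). The arrays share their scaling and group, and the likeness is a description of 6 points.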

How the data were processed

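The authors scanned the arrays and normalized them with the Affymetrix GeneChip Operating Software, per the labels' series text, with no version named there. Deposited were linear intensity signals, 1 per probe set and array, without detection calls, and the mean after trimming 2% at each end was 150 on all 6 arrays. Scanner files were not used here.

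Of 18952 signals 183 were controls, leaving 18769. Platform gene names were updated through gene identifiers to RefSeq (assembly GCF_000001215.4): 13646 probe sets had 1 gene, 13543 of them found in RefSeq, and 5123 had several genes or none. The brightest probe set stood for a gene. The test was limma 3.58.1 (R 4.3.3; lmFit and eBayes with trend) on log2(signal + 16), group as the only term, with Benjamini-Hochberg adjustment over all probe sets at 0.05. Differences are zld clone minus yw and understate those of dim genes. The script was tested on simulated data. The members, the 8 lists and the tests were chosen with earlier results of these data known. Named were all members, called list genes, each list's brightest gene and largest difference, tll and hkb, and the 3 genes most like gro and trk. Other named genes, such as Exo84, ogre, the marker genes and the control probe sets, were chosen after their values were seen. The labels speak both of duplicate and of 3 replicate collections, so p-values may cover only the spread between these samples. Same-numbered arrays of the 2 groups had correlations of deviations of 0.147, -0.00154 and -0.0349. Pairs with different numbers ran from -0.118 to 0.126. So few arrays cannot show whether the groups were paired. No sequences are shown. The number of arrays limits the precision. Python 3.11.15, pandas 2.3.3 and matplotlib 3.10.9 made tables and figures.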

Additional observations from a re-analysis of the deposited data

How the results depend on the processing

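The 6 terminal system and repressor genes had 0 calls in either direction under all 18 alternatives, although tsl did not pass the filter on dim probe sets, and tsl and gro were left out with their suffixed probe sets. The sign turned for tsl without yw replicate 1 (-0.02, range over left-out arrays -0.02 to 0.32) and for the dim cic probe set without yw replicates 1 and 2 (0.14). Fur2 turned with median centring (0.14) and over left-out arrays ran from -0.14 to 0.08. 14-3-3epsilon turned under quantile normalization (-0.0028) and without yw replicates 1 and 2 (-0.06), HDAC1 with median centring (0.05), and hkb without yw replicates 1 and 2 (0.17). The cause was not tested.

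The other pathway genes had 5 called lower. The count was 2 with eBayes without trend, 2 with a pseudocount of 64, 2 with the replicate block, 0 with the methods' t-test, 1 without yw replicates 1 and 2, and 1 to 6 when 1 array was left out. Among all 18769 probe sets 146 were called lower, 162 higher. A filter on dim probe sets, which left 9386 to test, gave 264 lower and 327 higher, the replicate block 76 and 75, the methods' t-test 0 and 2 (with 2491 at an unadjusted p under 0.05), and leaving out yw replicates 1 and 2 gave 43 and 51. Leaving out 1 array gave 45 to 213 lower and 35 to 227 higher. With median centring 127 were lower and 552 higher, so that higher calls made up 81.3% in place of 52.6%. The replicate block changed no call of the 6 genes. Same-numbered arrays were not paired by the labels.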
